A study of Mus musculus with 6 samples.

Results

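Cadherins and protocadherins are membrane proteins through which neighbouring cells bind each other. The gene table of the series was searched for the numbered cadherins (Cdh followed by a number) and for every protocadherin (Pcdh). The search found 85 of the 17457 genes listed: 21 numbered cadherins, 52 clustered protocadherins and 12 other protocadherins. The clustered genes comprised 10 of the alpha, 21 of the beta and 21 of the gamma cluster. The GENCODE M21 annotation has 14, 22 and 22 genes in these clusters, so a few were not listed. The search did not hold to the classical cadherins alone. Cdh13, Cdh16, Cdh17, Cdh23 and Cdh26 share the family name without belonging to the classical type I or type II groups, so the 21 genes are called numbered cadherins here.

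RNA sequencing was performed on MSCs sorted from collagenase IV-digested long bones of wild type female C57BL/6J mice that were 10 weeks old. Primary MSCs (2 libraries) were freshly isolated, without culture, and cultured MSCs (4 libraries) were sorted after the mixed bone cells had spent 10 days in MesenCult medium, a single passage. Both groups were gated as CD45-, Ter119-, CD31-, Sca-1+ and PDGFR-α+, and each library was a pool of cells from more than 1 mouse. Per the study's methods, each cultured library came from fewer mice and more cells than either primary library, and the primary pools differed in both. The comparison asks which adhesion genes differ after 1 passage. Because MSCs were sorted only after culture, and because the libraries are bulk RNA, fewer cells of a type and less RNA per cell cannot be told apart.

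A cadherin carries a row of repeated extracellular domains that bind calcium and, in most members, a partner cadherin on the next cell. In classical cadherins the cytoplasmic tail holds p120, beta- and alpha-catenin and so ties the contact to actin. Cdh2 (N-cadherin) and Cdh11 (osteoblast cadherin) are the classical cadherins best known from osteoblasts and other mesenchymal cells. Protocadherins lack the catenin-binding tail. The clustered protocadherins, best known from neurons, are made by joining 1 of many variable exons, each with its own promoter, to shared constant exons in the alpha and gamma clusters, while beta genes are single exons. The other protocadherins are single genes, among them the delta protocadherins, some of which recruit the WAVE complex that branches actin.

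Promoter sequence is shown for Pcdh18 and Pcdh19, close relatives among the delta protocadherins that differed in their response, the first falling in culture and the second not passing the test. The stretches end before the outermost start that RefSeq gives for each gene, and run 5′ to 3′ on the minus strand of GRCm38.p6. Capitals mark CG dinucleotides, the sites of DNA methylation. The Pcdh18 stretch is chr3:49757384-49757566 (183 bases) and the Pcdh19 stretch is chrX:133689045-133689243 (199 bases).
Pcdh18: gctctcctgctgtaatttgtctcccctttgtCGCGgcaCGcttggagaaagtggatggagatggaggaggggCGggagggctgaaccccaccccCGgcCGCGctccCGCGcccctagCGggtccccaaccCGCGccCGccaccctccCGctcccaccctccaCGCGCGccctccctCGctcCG
Pcdh19: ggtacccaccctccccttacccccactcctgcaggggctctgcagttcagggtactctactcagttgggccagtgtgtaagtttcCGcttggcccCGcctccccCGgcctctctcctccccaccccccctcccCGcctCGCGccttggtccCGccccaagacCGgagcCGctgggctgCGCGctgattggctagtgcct
The letters CG, which read the same on both strands, occur 19 times in the Pcdh18 stretch and 11 times in the Pcdh19 stretch. In the full 250 bases before the start used by RefSeq they occur 23 and 16 times. Over 32851 windows of that length the median was 6 (quartiles 2 and 16), and 92.1% of windows held at least 1. Both genes are therefore at or above the upper quartile in CG count, and Pcdh18, which fell, had the higher count. The part of CG count in the response of these genes was not tested. DNA methylation was not measured.

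Levels are FPKM, fragments counted relative to transcript length and to the size of the library, a scale on which genes of different length can be compared. Summed FPKM over all genes was 612104 to 642497 in the cultured and 559601 to 571471 in the primary libraries. The number of reads behind a value is unknown, so values well under 1 FPKM are imprecise to an unknown degree. A gene entered the test if 2 or more libraries reached 1 FPKM, which left 11405 genes. The test was run with limma on log2(FPKM + 0.1), where changes of low genes come out too small, and "rose" or "fell" refers to cultured against primary MSCs at an adjusted p under 0.05. Means are given ± SD over the 4 cultured and 2 primary libraries. Over all genes tested the log2 fold change had a median of 0.45, or of 0.06 after median ratio scaling.

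Of the 85 genes, 5 were listed at 0 in every library (Cdh9, Cdh20, Pcdh8, Pcdha5 and Pcdha7), and 37, these 5 included, stayed under 0.5 FPKM throughout. The filter left 34 to be tested: 4 numbered cadherins, 6 beta, 20 gamma and 4 other protocadherins. Of these, 25 reached 1 FPKM in both groups, 5 passed through the cultured libraries alone and 4 through the primary libraries alone, so for 9 genes the filter and the direction are linked. Among the 34, 10 rose (29.4%), 12 fell (35.3%) and 12 were not called, whereas 48.1% of all genes tested rose and 17.6% fell. Their median log2 fold change was -0.06. When a log2 fold change of 2 or more in either direction and an adjusted p no higher than 0.01 were required, Cdh2 and Cdh17 were higher and Cdh13, Pcdhb9 and Pcdhb20 lower, beside 8.36% and 5.95% of all genes tested. Without primary replicate 2, 5 genes were higher by this rule, with Pcdh7, Pcdhb22 and Pcdhgb4 added.

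With no filter, 80 of the 85 genes had a value to test, of which 13 (16.3%) were called higher and 18 (22.5%) lower. The shares over all 16845 genes with a value were 34.6% and 14.3%. Counted by whether the libraries overlap at all, 16 of the 80 genes were higher in every cultured library than in both primary libraries and 21 were lower in every one, beside 40.6% and 18% of all genes. By both of these counts, the share of cadherins and protocadherins that was higher was below that of all genes and the share that was lower was above it. The beta cluster alone held 9 of the 18 genes called lower and 10 of the 21 lower by overlap. The gamma cluster was above all genes as well, with 6 of its 21 genes lower by each count (28.6%). So were the other protocadherins, with 2 (18.2%) and 3 (27.3%) of 11. Of 19 numbered cadherins 1 was called lower (5.26%) and 2 were lower by overlap (10.5%), and 0 alpha genes were lower by either count. The larger share of lower genes is thus neither a trait of the whole family nor of the beta cluster alone.

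**Figure D1:**
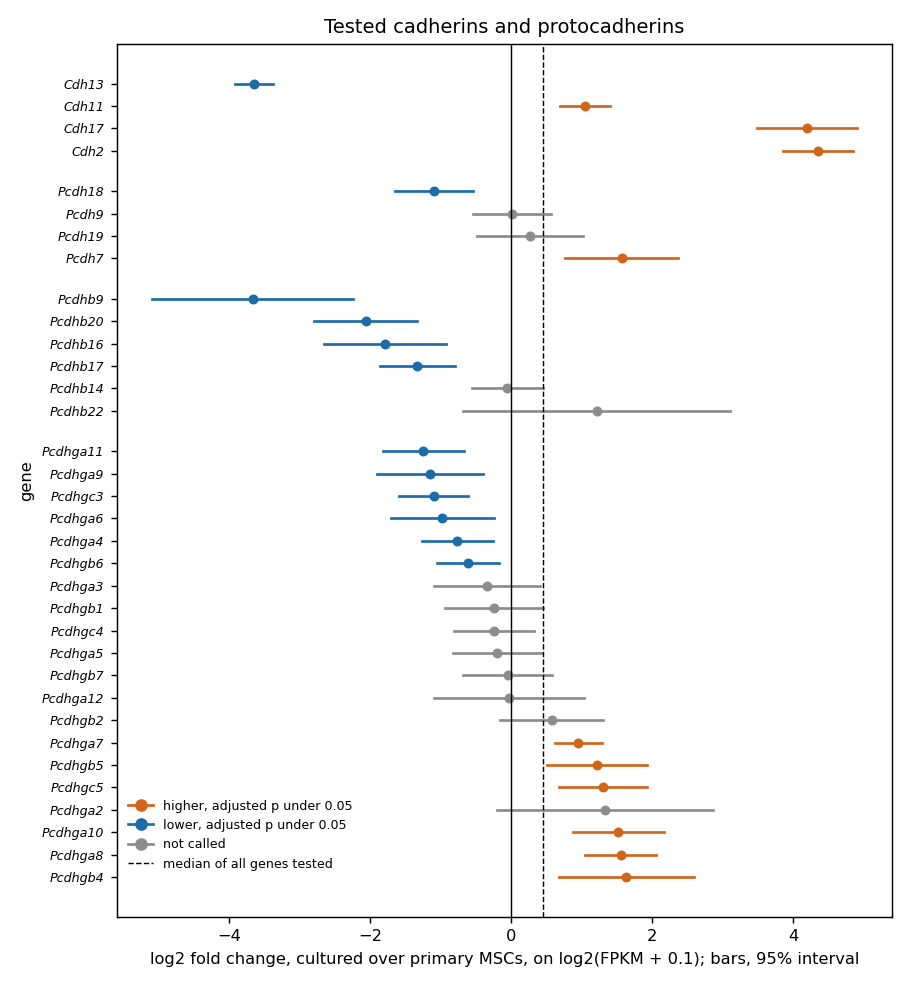
Log2 fold change of cultured over primary MSCs (x axis, on log2(FPKM + 0.1)) for the 34 tested genes (y axis), with points for the limma estimate, bars for its 95% interval and a dashed line at the median of all genes tested, 0.45. Cdh13 and Pcdhb9 lie furthest left (-3.65 and -3.67), Cdh2 and Cdh17 furthest right (4.35 and 4.20), and the gamma genes spread to both sides of 0.

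Among the numbered cadherins, culture was accompanied by a change in which gene was most abundant. Cdh13 made up 94.8% ± 0.272 (SD, n = 2) of the summed FPKM of the numbered cadherins in primary MSCs and 36.2% ± 3.24 (SD, n = 4) in cultured MSCs. Cdh11 made up 4.66% ± 0.635 and 45.8% ± 2.08, and Cdh2 0.125% ± 0.0408 and 14.6% ± 2.12. The sum itself was 360 ± 21.5 FPKM in primary and 75.3 ± 5.36 FPKM in cultured MSCs.

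Cdh13 (chr8:118140017-119324929) encodes T-cadherin, which is held in the membrane by a glycosylphosphatidylinositol anchor, has no cytoplasmic tail and also binds adiponectin. It was the most abundant gene of the family in primary MSCs, at 355.47 and 328.04 FPKM. In cultured MSCs it read 29.78, 28.95, 25.84 and 24.29 FPKM. The groups were far apart and the libraries of each group close together. Cdh13 was 12.6-fold lower in cultured MSCs (log2 fold change -3.65, SE 0.11, adjusted p = 2.88e-07).

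Cdh2 (chr18:16588877-16809246), N-cadherin, was near the floor in primary MSCs at 0.36 and 0.53 FPKM and stood at 9.16, 11.17, 10.45 and 12.98 FPKM in cultured MSCs. Every cultured library was far above both primary libraries. The rise was 24.6-fold as a ratio of means, 10.9 ± 1.59 against 0.445 ± 0.120 FPKM (log2 fold change 4.35, SE 0.21, adjusted p = 2.05e-06). Cdh2 passed the filter through the cultured libraries alone.

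Cdh11 (chr8:102632095-102785493), osteoblast cadherin, was expressed in both groups, with 19.18 and 14.53 FPKM in primary and 33.49, 38.92, 29.91 and 36.06 FPKM in cultured MSCs. The groups did not overlap, and the rise was 2.05-fold (log2 fold change 1.04, SE 0.15, adjusted p = 0.000549). The log2 fold change was smaller with median ratio scaling (0.65) and with quantile normalization (0.64), and was called with both. Cdh11 was the most abundant numbered cadherin in each cultured library.

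Cdh17 (chr4:11758157-11817905), liver-intestine cadherin, stood at 0 in each primary library and at 2.34, 1.81, 1.38 and 1.54 FPKM in cultured MSCs. No fold is given against a group at 0. On the log2(FPKM + 0.1) scale the difference was 4.20 (SE 0.31, adjusted p = 1.32e-05), a value set by the pseudocount. Of the epithelial markers 1 of 7 in the table was tested, Krt19, which was higher in cultured MSCs (6.04 to 9.03 against 1.58 and 0.18 FPKM) and made up most of the list's sum (6.48 to 9.51 against 0.76 to 2.59 FPKM). Krt18 was not higher, at 0.15 to 0.55 against 0.56 and 0.55 FPKM, and Krt5 and Krt8 were at 0 in every library. The part of these markers in the Cdh17 result was not tested.

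The other 17 numbered cadherins were not tested. Cdh4, retinal cadherin, exceeded 0.5 FPKM in 1 library alone, at 1.41 FPKM in primary replicate 2, beside 0.11 FPKM in primary replicate 1 and 0.04, 0.10, 0.01 and 0.14 FPKM in cultured MSCs. The remaining 16 stayed under 0.5 FPKM in all libraries. Among them were the defining cadherins of other tissues: Cdh1 of epithelium did not exceed 0.02 FPKM, Cdh5 of endothelium 0.05 FPKM and Cdh15 of skeletal muscle 0.03 FPKM. Cdh18, a type II cadherin, read 0.12, 0.12, 0.09 and 0.15 FPKM in cultured and 0.01 FPKM in both primary libraries, and was the only numbered cadherin under the filter that was called higher or lower when the filter was dropped (log2 fold change 0.99, adjusted p = 0.00499).

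**Figure D2:**
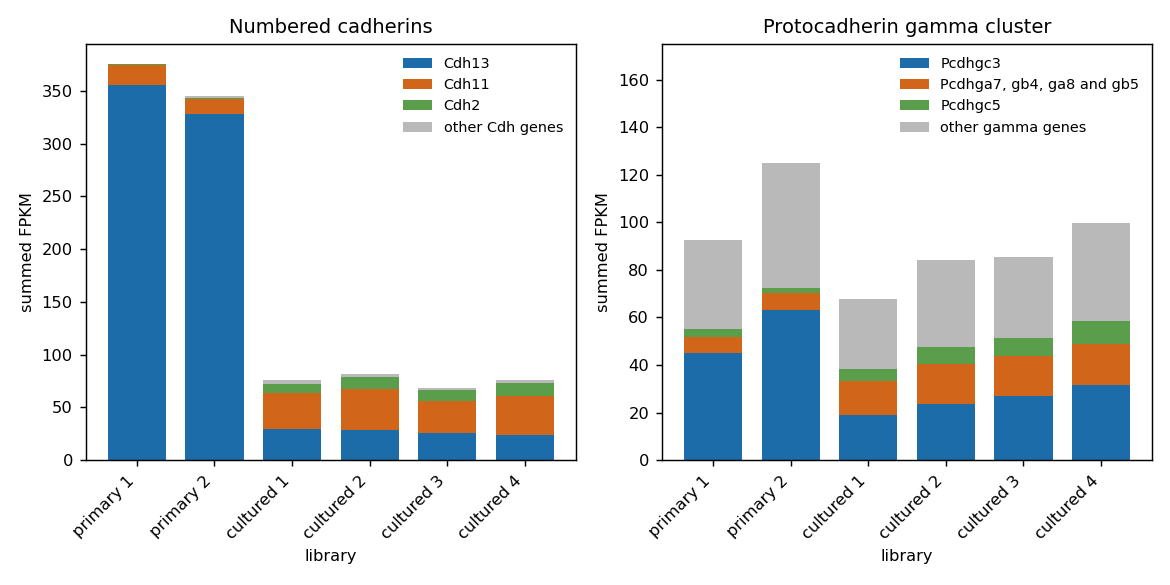
Summed FPKM (y axes, from 0) in each library (x axes) of the numbered cadherins, left, and of the gamma protocadherins, right, with colours for the genes named in each legend. Cdh13 fills 94.8% of the primary bars on the left and 36.2% of the cultured bars, and Pcdhgc3 fills 49.8% of the primary and 29.9% of the cultured bars on the right.

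The other protocadherins moved in both directions. Pcdh7 (chr5:57716145-58133236), a delta-1 protocadherin, read 0.79 and 1.96 FPKM in primary and 4.42, 4.65, 3.02 and 3.76 FPKM in cultured MSCs. No cultured library fell as low as the primary libraries, and the means differed 2.88-fold (log2 fold change 1.57, SE 0.35, adjusted p = 0.00448). Pcdh18 (chr3:49743291-49757383), a delta-2 protocadherin whose upstream sequence is given above, went the other way. It read 7.50 and 10.86 FPKM in primary and 4.55, 4.08, 3.14 and 5.09 FPKM in cultured MSCs, where it was 2.18-fold lower (log2 fold change -1.10, SE 0.24, adjusted p = 0.00403).

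Pcdh9 (chr14:93013700-93892834), a delta-1 protocadherin, read 2.01 and 2.33 FPKM in primary and 2.64, 2.03, 1.69 and 2.51 FPKM in cultured MSCs. The groups overlapped, and the 95% interval of its log2 fold change ran from -0.54 to 0.57. Pcdh19 (chrX:133582860-133689044), a delta-2 protocadherin, overlapped too, with 0.97 and 0.63 FPKM in primary and 1.11, 1.11, 0.63 and 1.08 FPKM in cultured MSCs, and an interval from -0.49 to 1.01. Neither gene was called under any alternative, and the sign of each turned with the scaling (Pcdh9 -0.36 and Pcdh19 -0.09 with median ratio scaling). Cultured replicate 3 was the lowest cultured library for Pcdh7, Pcdh9, Pcdh18 and Pcdh19, and was also the library with the lowest cultured sum of macrophage markers, 104 FPKM against up to 330 FPKM. The part of these markers in the protocadherin values was not tested.

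Pcdh11x (chrX:120290238-120910622), a delta-1 protocadherin, stayed under the filter. It was listed at 0 and 0.01 FPKM in primary and at 0.66, 0.75, 0.70 and 0.80 FPKM in cultured MSCs, a narrow range that lay wholly above the primary values (with no filter, log2 fold change 2.98, adjusted p = 8.78e-05). Pcdh20 was lower, at 0.06, 0.08, 0.07 and 0.08 FPKM in cultured against 0.29 and 0.39 FPKM in primary MSCs (with no filter, log2 fold change -1.34, adjusted p = 0.00188). The last 6 of the 12, among them Pcdh12 of endothelium and Pcdh15 of sensory hair cells, stayed at or under 0.19 FPKM.

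**Figure D3:**
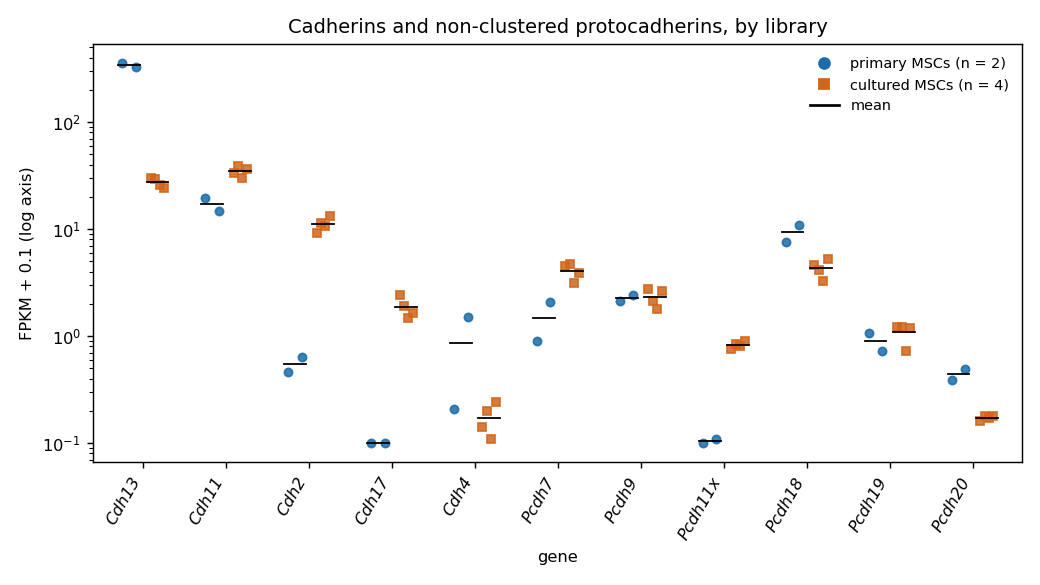
FPKM + 0.1 on a log axis (y axis) in each of the 2 primary (circles) and 4 cultured (squares) libraries for numbered cadherins and non-clustered protocadherins (x axis), with lines at the group means. Cdh13 drops from a mean of 342 FPKM to 27.2 FPKM, Cdh2 and Cdh17 rise from near the floor, and Pcdh9 and Pcdh19 overlap between the groups.

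The beta cluster (members at chr18:37294840-37521419) was lower in cultured MSCs as a sum. Its 21 listed genes summed to 23.15 and 23.54 FPKM in primary and to 10.01, 8.94, 8.53 and 8.88 FPKM in cultured MSCs, a ratio of cultured to primary means of 0.389. Of the 6 genes tested, 4 fell, 0 rose and 2 were not called, with a median log2 fold change of -1.56. Of the 4 that fell, Pcdhb9, Pcdhb16 and Pcdhb20 had passed the filter through the primary libraries alone. With no filter, all 21 genes could be tested and 9 were called lower (42.9%), 1 higher and 11 neither, beside 14.3% lower among all genes. By overlap, 10 of 21 were lower in every cultured library (47.6%) and 1 was higher, beside 18% lower among all genes with a value.

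Pcdhb9 changed most, from 4.25 and 2.80 FPKM in primary to 0.22, 0, 0.40 and 0.28 FPKM in cultured MSCs, 15.7-fold lower (log2 fold change -3.67, SE 0.62, adjusted p = 0.00109). Pcdhb17 had the highest beta mean in both groups, at 4.67 and 5.04 FPKM in primary and 2.32, 2.11, 1.53 and 1.61 FPKM in cultured MSCs (log2 fold change -1.33, SE 0.23, adjusted p = 0.00123). Neither gene overlapped between the groups. Pcdhb20 read 2.73 and 1.52 FPKM in primary and 0.37, 0.35, 0.48 and 0.46 FPKM in cultured MSCs (log2 fold change -2.06, adjusted p = 0.000653). Pcdhb16 read 1.06 and 1.65 FPKM in primary and 0.45, 0.37, 0.17 and 0.31 FPKM in cultured MSCs (log2 fold change -1.79, adjusted p = 0.00345). In each of these genes both primary libraries were above every cultured one.

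Pcdhb14 lay at the same level in all libraries, at 1.51 and 1.75 FPKM in primary and 1.52, 1.74, 1.36 and 1.64 FPKM in cultured MSCs (95% interval of the log2 fold change -0.56 to 0.45). Pcdhb22 could not be placed, because the primary libraries differed from each other at 0.07 and 1.86 FPKM, to either side of the cultured values of 1.21, 0.91, 1.38 and 1.52 FPKM. Its log2 fold change was 1.21 with both primary libraries, -0.55 without primary replicate 1 and 2.97 without primary replicate 2, when it was called.

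Of the 15 beta genes under the filter, the 3 with a primary mean of at least 1 FPKM were all lower in every cultured library, a direction that this choice of genes nearly fixes. Pcdhb11 read 0.57 and 2.17 FPKM in primary and 0.21, 0.11, 0.08 and 0.08 FPKM in cultured MSCs, and Pcdhb12 read 2.22 and 0.89 FPKM in primary and 0.18, 0.27, 0.39 and 0.10 FPKM in cultured MSCs. Pcdhb21 read 0.81 and 2.03 FPKM in primary and 0.36, 0.43, 0.17 and 0.57 FPKM in cultured MSCs. With no filter their log2 fold changes were -2.52, -2.26 and -1.60. The primary libraries were far from each other in all 3, with primary replicate 2 the higher in Pcdhb11 and Pcdhb21 and primary replicate 1 in Pcdhb12. Pcdhb3, Pcdhb7 and Pcdhb15 showed the same unevenness, at 0.75 and 0 FPKM, 1.09 and 0.07 FPKM, and 0.02 and 0.73 FPKM in primary replicates 1 and 2. Pcdhb4, Pcdhb5 and Pcdhb8 reached 0.5 FPKM in primary MSCs alone, with highest values of 0.86, 0.76 and 0.65 FPKM, and with no filter Pcdhb4 (log2 fold change -1.98) and Pcdhb8 (-1.57) were called lower. Pcdhb13 was the beta gene called higher with no filter, at 0.40, 0.18, 0.40 and 0.22 FPKM in cultured and 0.10 and 0 FPKM in primary MSCs.

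The gamma cluster (chr18:37661775-37841873) was the most expressed of the clusters, and 20 of its 21 listed genes were tested. Its sum was 92.61 and 124.79 FPKM in primary and 67.73, 84.19, 85.31 and 99.66 FPKM in cultured MSCs, so the groups overlapped. Within the sum, 6 genes rose (30%), 6 fell (30%) and 8 were not called, with a median log2 fold change of -0.13. Of all genes tested 48.1% rose and 17.6% fell. All gamma transcripts end in the same constant exons. In the GENCODE M21 annotation 2119 bases, 27.8% to 45.9% of each gene's exonic length, are common to most genes of the cluster, and fragments from them can be assigned to 1 gene only by estimation. The values of single gamma genes are uncertain to that extent.

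Pcdhgc3, a C-type gene set apart from the variable A and B types, held the largest share. It read 45.24 and 63.23 FPKM in primary and 19.15, 23.57, 26.84 and 31.59 FPKM in cultured MSCs (log2 fold change -1.10, SE 0.21, adjusted p = 0.00228). It accounted for 49.8% ± 1.29 (SD, n = 2) of the gamma sum in primary and 29.9% ± 1.99 (SD, n = 4) in cultured MSCs. Without it the cluster summed to 54.5 ± 10.0 FPKM in primary and 58.9 ± 8.04 FPKM in cultured MSCs, a difference smaller than the SD of either group. The A-type genes summed to 29.4 ± 6.51 and 28.9 ± 2.90 FPKM and the B-type genes to 20.9 ± 4.30 and 21.5 ± 3.43 FPKM in primary and cultured MSCs. These sums are of unscaled FPKM. Median ratio scaling, which divides cultured libraries by 1.09 to 1.12 and primary libraries by 0.84, would shift them downward in culture relative to primary MSCs.

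The C-type genes went different ways. Pcdhgc5, the last variable exon of the cluster, read 3.34 and 2.44 FPKM in primary and 5.04, 6.98, 7.75 and 9.73 FPKM in cultured MSCs (log2 fold change 1.30, SE 0.27, adjusted p = 0.00315). Pcdhgc4, which lies between these genes, overlapped between the groups at 1.41 and 1.22 FPKM in primary and 1.11, 1.11, 0.88 and 1.30 FPKM in cultured MSCs (95% interval -0.82 to 0.33). Cultured replicate 4 was the highest cultured library for all 3.

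In chromosomal order, 4 of the 6 genes that rose stand next to each other among the genes listed, at positions 9 to 12 of the 21. Pcdhga7 read 3.44 and 3.47 FPKM in primary and 6.93, 6.63, 7.04 and 6.49 FPKM in cultured MSCs (log2 fold change 0.95, SE 0.14, adjusted p = 0.000602). Pcdhgb4 read 0.55 and 1.62 FPKM in primary and 2.18, 2.96, 3.82 and 4.10 FPKM in cultured MSCs (log2 fold change 1.63, adjusted p = 0.00883). Pcdhga8 read 1.67 and 1.33 FPKM in primary and 3.84, 5.72, 4.44 and 4.45 FPKM in cultured MSCs (log2 fold change 1.55, SE 0.22, adjusted p = 0.000401). All cultured values of these genes were above the primary ones. The same was true of Pcdhgb5, with 0.83 and 0.47 FPKM in primary and 1.23, 1.71, 1.47 and 2.03 FPKM in cultured MSCs (log2 fold change 1.21, adjusted p = 0.00863). The 4 genes were grouped after their values were seen, and no test was made of their adjacency. Together they held 6.26% ± 1.05 (SD, n = 2) of the gamma sum in primary and 19.5% ± 1.66 (SD, n = 4) in cultured MSCs. Without primary replicate 1, Pcdhgb4 was no longer called (log2 fold change 0.93, adjusted p = 0.0550), nor was Pcdhgb5 with the replicate block (1.09, adjusted p = 0.0865).

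The sixth gene to rise was Pcdhga10 at position 15, with 0.85 and 1.44 FPKM in primary and 2.49, 3.86, 3.60 and 3.71 FPKM in cultured MSCs (log2 fold change 1.52, SE 0.28, adjusted p = 0.00172). Pcdhgb7, next to it at position 16, was not called, and the genes at positions 13, 14 and 17 fell. Pcdhga11, at position 17, read 5.34 and 8.60 FPKM in primary and 2.31, 2.74, 2.77 and 3.50 FPKM in cultured MSCs (log2 fold change -1.25, SE 0.25, adjusted p = 0.00268). Pcdhga9, at position 13, read 1.00 and 1.35 FPKM in primary and 0.36, 0.67, 0.37 and 0.52 FPKM in cultured MSCs (log2 fold change -1.16, adjusted p = 0.0142). Pcdhgb6, at position 14, read 7.69 and 9.29 FPKM in primary and 4.68, 4.96, 5.83 and 6.73 FPKM in cultured MSCs (log2 fold change -0.61, adjusted p = 0.0221). In these 3 genes each primary value was above every cultured value.

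Upstream in the cluster, Pcdhga4 and Pcdhga6 fell. Pcdhga4 read 2.91 and 4.11 FPKM in primary and 2.17, 1.90, 1.79 and 2.14 FPKM in cultured MSCs (log2 fold change -0.77, adjusted p = 0.0145). Pcdhga6 read 2.79 and 3.17 FPKM in primary and 1.07, 1.94, 1.10 and 1.98 FPKM in cultured MSCs (log2 fold change -0.98, adjusted p = 0.0245). In both genes each primary value was above every cultured value. Whether the smaller falls of the cluster were called depended on which libraries were kept. Without primary replicate 2, Pcdhga4, Pcdhga6, Pcdhga9 and Pcdhgb6 were not called, at log2 fold changes of -0.52, -0.89, -0.96 and -0.48. Pcdhga6 was not called either without primary replicate 1 (-1.07), cultured replicate 1 (-0.84) or cultured replicate 3 (-0.85), nor was Pcdhgb6 without cultured replicate 2 (-0.56).

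The 8 gamma genes that were tested and not called overlapped between the groups. Besides Pcdhgc4, 6 of them had primary means between 1.29 and 4.18 FPKM, and Pcdhga2 read 0.75 and 0.05 FPKM in primary against 0.53, 1.22, 0.60 and 1.01 FPKM in cultured MSCs. Most were split by the primary libraries. Pcdhga3 read 1.82 and 4.28 FPKM in primary against 2.10, 1.92, 2.37 and 2.38 FPKM in cultured MSCs, and Pcdhgb1 2.67 and 5.69 FPKM against 2.79, 3.86, 3.16 and 3.36 FPKM. Pcdhgb2 read 2.29 and 4.82 FPKM in primary against 3.80, 5.37, 4.80 and 6.38 FPKM in cultured MSCs, and Pcdhga12 0.55 and 2.04 FPKM against 0.76, 1.13, 1.19 and 1.21 FPKM. In each of these 4, primary replicate 1 was below every cultured library and primary replicate 2 within or above the cultured range.

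Pcdhgb7 went the other way, at 3.82 and 2.04 FPKM in primary against 2.28, 2.82, 3.05 and 2.67 FPKM in cultured MSCs. Pcdhga5 read 2.85 and 2.79 FPKM in primary against 2.29, 2.17, 1.94 and 3.71 FPKM in cultured MSCs, where replicate 4 stood above the rest. Leaving out primary replicate 1, Pcdhga2 (log2 fold change 2.58), Pcdhga3 (-0.94), Pcdhga12 (-0.89) and Pcdhgb1 (-0.78) were called, and leaving out primary replicate 2, Pcdhgb2 (1.09) was called. Pcdhga1, the only gamma gene under the filter, read 0.80 and 1.34 FPKM in primary and 0.62, 0.95, 0.50 and 0.67 FPKM in cultured MSCs.

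The unevenness between libraries was wider than for most genes. The median range between the primary libraries was 0.34 on the log2 scale over all genes tested, 0.51 over the 34 tested cadherins and protocadherins and 0.96 over the 6 B-type gamma genes. Between the cultured libraries the medians were 0.34, 0.61 and 0.60. The 4 tested numbered cadherins had a median range of 0.26 between the primary libraries, under that of all genes, and of 0.44 between the cultured libraries. The members have lower levels than many genes, and levels were not matched for this description.

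**Figure D4:**
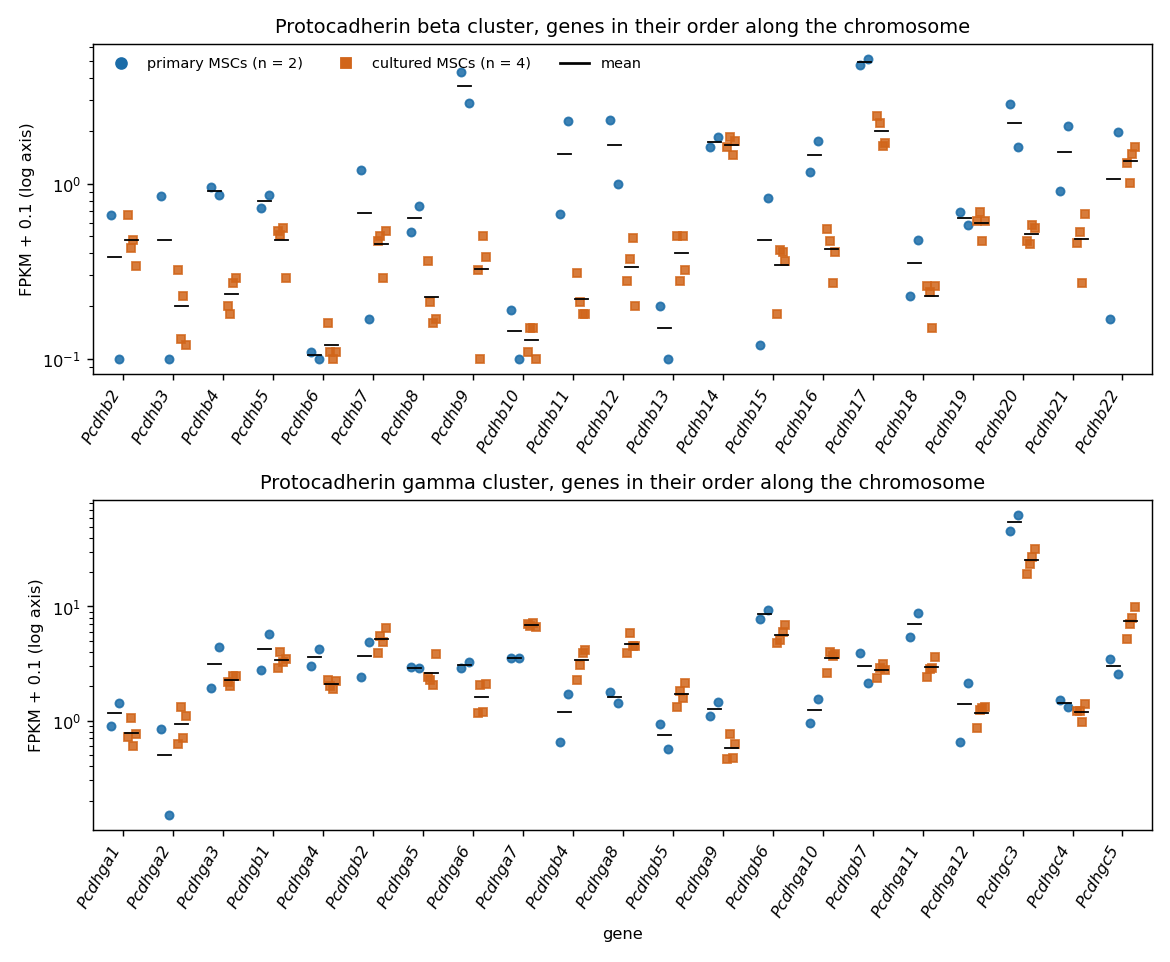
FPKM + 0.1 on log axes (y axes) of the beta (top) and gamma (bottom) protocadherins in their order along the chromosome (x axes), in 2 primary (circles) and 4 cultured (squares) libraries, with lines at the group means. Pcdhb9, Pcdhb17 and Pcdhb20 are lower in every cultured library, Pcdhga7 to Pcdhgb5 form a run of 4 genes that are higher, and Pcdhgc3 stands above all others in both groups.

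The alpha cluster (members at chr18:36946088-37187663) was close to silent as far as its genes were listed. Its 10 listed genes summed to 0.19, 0.32, 0.15 and 0.18 FPKM in cultured MSCs and to 0.02 FPKM in both primary libraries, and none passed the filter. The highest single values were 0.13 FPKM for Pcdhac2 in cultured replicates 2 and 3. With no filter, 0 of the 8 alpha genes with a value were called. The gamma sum exceeded it by far in every library (67.73 FPKM or more). Here 2860 bases, 38.0% to 54.9% of each gene's exonic length, are common to most genes, so the sum is better placed than any single gene.

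The catenins and junction plaque genes, through which classical cadherins hold actin, split in much the same way as all genes. Of 12 tested of 17, 6 rose, 3 fell and 3 were not called, with a median log2 fold change of 0.46, beside 0.45 for all genes. Over all genes tested 48.1% rose and 17.6% fell, the shares to set beside this list and those below. Ctnna1 (alpha-catenin), the most abundant, rose from 60.1 ± 4.62 to 106 ± 5.70 FPKM (log2 fold change 0.82, adjusted p = 0.000162). Ctnnb1 (beta-catenin), named after its values were seen, rose from 28.8 ± 6.34 to 55.3 ± 11.4 FPKM (0.93, adjusted p = 0.00559), and Vcl (vinculin, which binds alpha-catenin under tension) from 18.0 ± 2.81 to 47.0 ± 12.3 FPKM (1.35, adjusted p = 0.00127). Jup (plakoglobin, the relative of beta-catenin shared with desmosomes) fell, from 28.44 and 43.23 FPKM in primary to 8.63, 9.43, 9.46 and 9.78 FPKM in cultured MSCs (-1.90, SE 0.17, adjusted p = 4.2e-05). The nectins, immunoglobulin-type adhesion proteins of the same junctions, split, with Nectin2 higher (1.84) and Nectin3 lower (-1.27).

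Among 27 other genes of the cadherin superfamily, 19 were in the table and 6 were tested, of which 3 rose, 2 fell and 1 was not called. Dchs1 and Fat4, large cadherins that bind each other across cells, changed in opposite directions. Dchs1 read 2.38 and 4.38 FPKM in primary and 0.08, 0.06, 0.03 and 0.07 FPKM in cultured MSCs (log2 fold change -4.39, SE 0.36, adjusted p = 2.48e-05). Fat4 read 0.71 and 1.27 FPKM in primary and 3.29, 3.04, 2.77 and 3.63 FPKM in cultured MSCs (1.63, SE 0.26, adjusted p = 0.000825). Fat1 rose too, from 5.87 ± 0.255 to 15.5 ± 1.15 FPKM (1.38, adjusted p = 4.68e-05), as did Cdhr1, a photoreceptor cadherin, from 0.01 FPKM in both primary libraries to 1.42 ± 0.376 FPKM (3.75, adjusted p = 3.02e-05). Clstn1 (calsyntenin 1), the most abundant of the list, fell from 32.1 ± 0.0283 to 14.9 ± 2.53 FPKM (-1.11, adjusted p = 0.000547). Dchs1 passed the filter through the primary libraries alone and Cdhr1 through the cultured libraries alone, so filter and direction are linked for both.

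All 13 of the proteases that process cadherins were tested, and 4 rose, 4 fell and 5 were not called (median log2 fold change 0.19). Proprotein convertases cut off the prodomain so that a classical cadherin can bind, and Pcsk5 and Pcsk6 among them had the largest falls. Pcsk5 fell from 11.4 ± 3.19 to 0.463 ± 0.231 FPKM (-4.41, adjusted p = 2.96e-05) and Pcsk6 from 29.3 ± 1.70 to 2.65 ± 0.680 FPKM (-3.45, adjusted p = 9.42e-06). Pcsk5 passed the filter through the primary libraries alone. Furin fell less, from 7.6 ± 0.22 to 4.1 ± 0.13 FPKM (-0.88, adjusted p = 0.000976), and Pcsk7 was not called (0.35, adjusted p = 0.0549). Of the 4 ADAM sheddases, which release the extracellular part, 2 rose: Adam9 from 27.9 ± 3.95 to 84.4 ± 6.50 FPKM (1.59, adjusted p = 1.61e-05) and Adam10, which cuts N-cadherin and gamma protocadherins, from 16.1 ± 0.693 to 34.7 ± 0.793 FPKM (1.10, adjusted p = 3.40e-05). Adam15 (log2 fold change -0.04, adjusted p = 0.823) and Adam17 (0.19, adjusted p = 0.286) were not called. Psenen, a subunit of gamma-secretase and the most abundant of the list, was not called (0.19, adjusted p = 0.183).

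Of 14 genes known to govern promoter choice and silencing in the protocadherin clusters, 13 were tested, and 2 rose, 1 fell and 10 were not called (median log2 fold change 0.15). Dnmt3a, a de novo DNA methyltransferase, fell from 3.76 ± 0.806 to 0.875 ± 0.126 FPKM (-1.98, adjusted p = 0.000224). It passed the filter through the primary libraries alone. Dnmt3b, the de novo methyltransferase known to methylate variable exon promoters, was not tested, at 0.27 ± 0.269 FPKM in primary and 0.31 ± 0.133 FPKM in cultured MSCs. Dnmt1, which copies methylation at replication, rose from 5.33 ± 3.12 to 16.2 ± 1.32 FPKM (1.71, adjusted p = 0.00135). Setdb1, a histone H3K9 methyltransferase, rose from 3.88 ± 0.325 to 6.35 ± 0.513 FPKM (0.70, adjusted p = 0.00499), and was not called after median ratio scaling (0.31, adjusted p = 0.125), quantile normalization (adjusted p = 0.0646) or with the replicate block (adjusted p = 0.0633). Smc1a, a cohesin subunit and the most abundant, was not called (0.08, adjusted p = 0.535). The split of this list depended on the scaling, with 1 higher and 5 lower, Smc1a among them, after median ratio scaling. That scaling moved the median of all genes to 0.06, and the shares of all genes called under it are not given here.

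Of 12 intracellular partners of protocadherins, 10 were tested, and 6 rose, 1 fell and 3 were not called (median log2 fold change 0.50). Of all genes tested 48.1% rose and 17.6% fell, with a median of 0.45. Ptk2b (Pyk2), a kinase that clustered protocadherins bind and inhibit, read 0.59 and 0.27 FPKM in primary and 8.80, 7.01, 7.35 and 7.24 FPKM in cultured MSCs (3.92, SE 0.27, adjusted p = 9.57e-06). It passed the filter through the cultured libraries alone. Fyn, a kinase bound by alpha protocadherins, fell from 8.28 ± 0.742 to 2.40 ± 0.389 FPKM (-1.75, adjusted p = 0.000139). The WAVE complex subunits Cyfip1, Abi2 and Brk1 rose by 0.70, 0.62 and 0.53 (adjusted p = 0.000834, 0.0158 and 0.0132), close to the median of all genes. After median ratio scaling 2 genes of this list were higher and 1 lower, and Abi2 and Brk1 were not called. The median of all genes was then 0.06, and the shares of all genes called are not given here.

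Marker genes of other cells moved with the groups. The sum of 13 macrophage markers was 33.8 to 35.1 FPKM in primary and 104 to 330 FPKM in cultured MSCs, with 9 of 10 tested markers higher, although the gate removed CD45+ cells and Ptprc, the gene for CD45, did not exceed 0.47 FPKM. Pericyte and smooth muscle markers summed to 72.5 to 77.3 FPKM in primary and 316 to 348 FPKM in cultured MSCs, with 1 of 3 tested higher, 1 lower and 1 not called. That sum rose through Acta2 (27.33 and 13.10 FPKM in primary, 281 to 316 FPKM in cultured MSCs), while Rgs5 went from 21.37 and 10.09 FPKM to between 0.13 and 0.58 FPKM. Erythroid markers (150 to 239 FPKM in primary, 0.20 to 0.61 FPKM in cultured MSCs, 4 of 4 tested lower), chondrocyte markers (8695 to 9621 and 985 to 1526 FPKM, 4 of 7 lower), osteoblast markers (6520 to 7894 and 2647 to 3391 FPKM, 5 of 6 lower) and tenocyte markers (3904 to 5239 and 1166 to 1388 FPKM, 3 of 5 lower) moved the other way. These falls are of sums, and 1 tested marker was higher in each of the chondrocyte, osteoblast and tenocyte lists. Col2a1 read 331 to 723 FPKM in cultured against 171.44 and 37.98 FPKM in primary MSCs. Runx2 read 7 to 8.34 against 2.83 and 1.97 FPKM, and Scx 6.06 to 6.86 against 3.92 and 2.16 FPKM. Cdh13, the summed beta protocadherins and Dchs1 were lower, and Cdh2, Cdh17 and Ptk2b higher, in the same cultured libraries. The part of other cells in these differences was not tested.

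Other lists had sums that overlapped between the groups or lay close together, although single markers within them moved. Endothelial markers summed to 5.06 to 5.65 FPKM in cultured and 5.27 to 5.50 FPKM in primary MSCs, with Cldn5 at 0, and both tested markers changed, Egfl7 higher (4.79 to 5.09 FPKM against 0.70 and 0.03 FPKM) and Tek lower (0 to 0.22 FPKM against 2.71 and 3.70 FPKM). Skeletal muscle markers summed to 3.97 to 7.04 and 4.27 to 4.40 FPKM, with Acta1 higher and Tnnt3 lower, and Schwann cell and neural markers to 20.1 to 27.5 and 13.4 to 24.9 FPKM. Markers of CXCL12-abundant stroma (239 to 398 and 306 to 320 FPKM) and the genes of the sort antigens (1153 to 1227 and 1123 to 1785 FPKM) overlapped between the groups as sums, which Cxcl12 and Ly6a dominate. In the stroma list 1 of 5 tested was higher and 2 lower, with Lepr at 2.28 to 4.44 FPKM in cultured against 33.64 and 35.53 FPKM in primary MSCs and Kitl at 11.4 to 14.0 against 3.09 and 3.10 FPKM. Of the sort antigens 1 of 2 tested was lower, Pdgfra, at 35.5 to 43.1 against 66.84 and 72.65 FPKM.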

How the data were processed

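RNA of 6 samples was sequenced after cDNA amplification with the SMART-Seq v4 kit. Per the submitters' processing notes and the study's methods, the authors cleaned reads with SOAPnuke, aligned them to GRCm38.p6 with HISAT2 2.0.4 and Bowtie2 2.2.5 and estimated levels with RSEM 1.2.8. The deposited table holds FPKM values with 2 decimals for 17457 genes, and a column of log2 fold changes by the authors that was not used. It holds no read counts, so the reads behind each value are unknown and count tests were not run.

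The 11405 genes that reached 1 FPKM in 2 or more libraries were compared by limma 3.58.1 in R 4.3.3 on log2(FPKM + 0.1), with a mean-variance trend and Benjamini-Hochberg adjustment over all genes tested (4 residual degrees of freedom). For 4 libraries against 2, the smallest p of an exact permutation test is 0.0667. Libraries are separate pools of mice, of unequal size between the groups, and p-values measure the spread between these pools. The members and gene lists were chosen with earlier results of these data known. Members with a mean of at least 1 FPKM in either group were named with every value. Members with a lower mean were given by count and range, and by name where a single library or group reached 0.5 FPKM. Of each partner list, the 4 largest called changes and the most abundant gene were named. Other genes named were chosen after their values were seen. RefSeq gave positions for all 85 members and promoter windows for 20, and GENCODE M21 gave exons. Alternatives were pseudocounts of 0.01 and 1, other filters, scalings and moderation, a replicate block and leaving out each library. Tables and plots were made with Python 3.11.15, pandas 2.3.3, numpy 2.4.6 and matplotlib 3.10.9.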

Additional observations from a re-analysis of the deposited data

How the results depend on the processing

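Across the 16 alternatives the number of cadherins and protocadherins called higher ran from 9 to 13 and lower from 8 to 18, against 10 and 12. Of the 22 genes called, 14 kept their call in every alternative, and none changed direction where it was tested. Pcdhb16 and Pcdhb20 kept it in all others but, like Pcdhga9, were not tested when the filter was a mean of at least 1 FPKM. The other 6 (Pcdhga4, Pcdhga6, Pcdhga9, Pcdhgb4, Pcdhgb5 and Pcdhgb6) lost it in at least 1. At the stricter thresholds 1 gene was higher and 1 lower with a pseudocount of 1, 5 were lower with no filter, and 2 to 5 were higher when single libraries were left out. Primary replicate 2 had the largest effect, with 12 higher and 8 lower without it. With 2 primary libraries, values that differ between them cannot be placed.

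Labels give both groups replicate numbers 1 and 2, but nothing pairs the pools (the correlations of same-numbered deviations were 0.121 and 0.0519). With the replicate block 9 genes were higher and 9 lower, with Pcdhga4, Pcdhga6, Pcdhga9 and Pcdhgb5 no longer called, and Pcdhb14 was at 0.00056.

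Genes that were not called changed sign as follows. With median ratio scaling Pcdh9 was -0.36, Pcdh19 -0.089, Psenen -0.20 and Smc1a -0.31. With quantile normalization these were -0.20, -0.082, -0.26 and -0.33. With TPM Pcdh9 was -0.12 and Smc1a -0.062. Leaving out single libraries, the log2 fold change ran from -0.089 to 0.13 for Pcdh9, -0.014 to 0.54 for Pcdh19, -0.16 to 0.043 for Pcdhb14, -0.55 to 2.97 for Pcdhb22, -0.89 to 0.83 for Pcdhga12, -0.94 to 0.25 for Pcdhga3, -0.78 to 0.28 for Pcdhgb1 and -0.49 to 0.38 for Pcdhgb7.

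Counts in the partner lists moved with the scaling. Among the alternatives the shares of all genes called are given only for the fit with no filter, so the other counts stand without them. Cluster regulators were 1 higher and 5 lower with median ratio scaling, 1 and 4 with quantile normalization, 2 lower with TPM and with a pseudocount of 0.01, and 1 higher with the replicate block. They were 1 to 2 lower when single libraries were left out. Signalling partners were 2 higher with median ratio scaling and with quantile normalization, and 3 with TPM and with the replicate block. Of the other superfamily genes 5 were lower with no filter. The scalings also moved the median of all genes, to 0.06 with median ratio scaling, 0.09 with quantile normalization and 0.31 with TPM. For the other settings the cause of these changes was not tested.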
